A study of Homo sapiens with 25 samples.

Results

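The mRNAs of the m6A machinery were followed in RNA that came down with IGF2BP1. They are 10 of the 63086 genes counted, chosen by name: the writer subunits METTL3, METTL14 and WTAP, the erasers ALKBH5 and FTO, and the YTH-domain readers YTHDF1, YTHDF2, YTHDF3, YTHDC1 and YTHDC2. N6-methyladenosine (m6A) is a methyl mark on adenosines of mRNA. METTL3 carries the catalytic site, METTL14 pairs with it and helps to hold the RNA, and WTAP anchors the pair in a larger nuclear complex. ALKBH5 and FTO are dioxygenases that take the mark off. The YTHDF proteins read it in the cytoplasm, YTHDC1 reads it in the nucleus, and YTHDC2 is a helicase with a YTH domain. IGF2BP1, the captured protein, binds RNA through its KH domains and has itself been described as a reader of m6A, so the mRNAs described here encode proteins that write, remove or read a mark on its own targets.

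RNA immunoprecipitation sequencing (RIP-seq) was done in HCT116 cells, a colon carcinoma line, to ask whether mutations in the disordered linkers of IGF2BP1 change the RNAs it binds in cells. The cells were labelled as knockouts of IGF2BP2 and IGF2BP3, carried a Tet-controlled OsTIR1 construct, and made IGF2BP1 fused to mCherry from a lentivirus. They were sorted as populations within a narrow mCherry gate rather than cloned, and the fusion protein was captured on RFP-Trap beads. The 4 lines carried wild-type IGF2BP1, S181E (a phosphomimetic change in linker 1), Y396E (a phosphomimetic change in linker 2) or RQ, in which 4 arginines of linker 1 that contact RNA with low affinity were replaced by glutamine. Each line was given sodium arsenite, an oxidative stressor, at 500 µM for 2 h, or PBS as control. Every line and treatment had 3 libraries, from dishes plated and grown independently, except RQ in arsenite with 2. Each form of IGF2BP1 was carried by a single line, so the spread between libraries is that between dishes of a line. An effect of a mutation and any other difference between the lines cannot be told apart. Parental HCT116 cells, with no mCherry fusion, gave 1 library per treatment as bead background.

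The 23 mCherry libraries held between 22246381 and 60273548 counts (median 34034910), and protein-coding genes took 60.1 to 66.6% of them in control and 68.7 to 76.6% in arsenite libraries, while mitochondrial rRNA took 31.8 to 38.2% and 22.2 to 30.1%. Of the parental libraries, the arsenite one held 18942497 counts and the control one only 1238013, so a gene at 0 in the control library has a background under a limit and not a measured one. The mRNA of the bait had no count in either parental library and between 695 and 4287 counts in every mCherry library. Its mean in control was 66.4 CPM in wild-type, 66.3 in S181E, 93.0 in Y396E and 111 in RQ. In arsenite the means were 40.1, 41.4, 52.1 and 80.6 CPM. The part of this difference in the mutant comparisons was not tested. Of the markers of colon epithelium, EPCAM, CDH1, KRT8, KRT18 and KRT19 had counts in all mCherry libraries, while VIL1 stood at 0 in 11 of them and reached at most 0.738 CPM. Among markers of other cell types, PTPRC (leukocytes) was at 0 in every mCherry library and COL1A1 (fibroblasts) was the highest, at 1.58 to 13.4 CPM. RNA-Seq libraries of the same cells were not analysed here. Whether more of an mRNA came down because more was bound or because the cell held more of it cannot be told apart.

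Levels are CPM, protein-coding counts scaled to a common library size with TMM factors, which rest on the premise that most genes do not change. Differences were tested with edgeR's quasi-likelihood test over 8734 protein-coding genes, and a gene was called when its Benjamini-Hochberg adjusted p was under 0.05 and it changed by more than 20%. All 10 members were among the genes tested. The smallest count of a member in an mCherry library was 104, for YTHDC2, which was above 10 CPM in 21 of the 23 mCherry libraries. The other members were above 10 CPM in all 23. Groups whose libraries did not overlap were common among all tested genes. Against wild-type they made up 26.1% for S181E, 36.2% for Y396E and 15.2% for RQ in control. In arsenite these shares were 37.9%, 62.1% and 42%. For arsenite against control they were 68.1% in wild-type, 72.9% in S181E, 75.7% in Y396E and 75% in RQ.

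Sequence features of the transcripts are given first, because m6A is laid down at GGAC and related pentamers and because IGF2BP1 is known for a bipartite element in which CGGAC is followed at a distance by ACA. On the transcript strand of each gene's canonical transcript in GENCODE release 44, all 10 members held GGAC, and so did 99.5% of the tested genes. ALKBH5 had the densest set, with 22 GGAC in 3159 bases or 6.96 per kb, and YTHDC2 the sparsest at 2.38 per kb. YTHDF1 had 5.00, YTHDF2 4.74, METTL3 4.55, WTAP 3.80, YTHDF3 2.55, FTO 2.51, and METTL14 and YTHDC1 2.41 per kb each, against a median of 3.55 per kb over all tested genes. The bipartite element, searched as CGGAC, 10 to 22 bases of any kind and ACA, was in METTL3 and FTO, or 2 of the 10 members, against 19.6% of the tested genes. CGGAC contains GGAC, so the searches overlap, and a match describes letters and not a bound or methylated site. The elements are shown here with CGGAC and ACA in capitals.
METTL3, chr14:21511190-21511219, hg38, minus strand, coding sequence in exon 1 of 11: CGGACacgtggagctctatccaggcccACA
FTO, chr16:53826298-53826317, hg38, plus strand, coding sequence in exon 3 of 9: CGGACaagatgaagtggACA

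The surroundings of the stop codon are the part of an mRNA where m6A is most often found. For the members called in the Y396E line, YTHDF3 left aside, the GGAC nearest to the stop codon is shown with 10 bases on each side. GGAC is in capitals, and only those whose shown bases lay in the same exon were considered. In all of these members the GGAC shown lay inside the coding sequence. Its first base was 36 bases from the last coding base in WTAP, 57 in ALKBH5, 80 in YTHDC1, 140 in METTL3 and 162 in YTHDF1.
WTAP, chr6:159755565-159755588, hg38, plus strand, exon 8 of 8: agaatggcttGGACtcaagtgtaa
ALKBH5, chr17:18208329-18208352, hg38, plus strand, exon 4 of 4: agtcctcagaGGACtgctctgagg
YTHDC1, chr4:68314166-68314189, hg38, minus strand, exon 17 of 17: gcgagatagaGGACgtgatagaga
METTL3, chr14:21499040-21499063, hg38, minus strand, exon 10 of 11: tgagttatttGGACgaccacacaa
YTHDF1, chr20:63202409-63202432, hg38, minus strand, exon 4 of 5: caaactcccgGGACacccaggagg

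Reads that match several places are left out of the counts, and by exact match this concerned only a small part of these transcripts. Windows that match with mismatches were not searched. Windows of 100 bases, the read length, that also occur in a transcript of another gene made up 7.58% of the WTAP transcript and 3.48% of the YTHDF2 transcript, and none were found for the other members. The counting used strand, and no member's exons lay under another gene on its own strand.

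Per kilobase of exon, which allows a rough comparison between genes, ALKBH5 and YTHDF2 led the members in the wild-type control RIP. The length used joins all annotated exons of a gene. For WTAP it is 4906 bases, against 2105 bases in its canonical transcript. On the shorter length WTAP would stand higher, and the order was not computed with canonical lengths. ALKBH5 stood at 78.6 ± 7.43 CPM per kb (SD, n = 3) and YTHDF2 at 68.5 ± 4.44 CPM per kb (SD, n = 3), and their libraries overlapped. Next came YTHDF1 at 42.0, WTAP at 28.3, YTHDF3 at 23.7, METTL3 at 11.4 and FTO at 4.56 CPM per kb, each without overlap with its neighbours. YTHDC1 at 2.98, METTL14 at 2.66 and YTHDC2 at 1.91 CPM per kb closed the order, and each overlapped the next. The cytoplasmic readers and ALKBH5 thus stood above the nuclear reader and METTL14, but WTAP stood above the cytoplasmic reader YTHDF3. The order is one of level in the RIP and not of excess over the beads. In wild-type control YTHDF2 was at 1.00 of the parental level.

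After arsenite the wild-type order was YTHDF2, ALKBH5, YTHDF1, WTAP, YTHDF3, METTL3, YTHDC1, FTO, YTHDC2 and METTL14. YTHDF2 at 60.7 and ALKBH5 at 55.9 CPM per kb overlapped, as did METTL3 at 10.5 and YTHDC1 at 10.2. In the S181E and Y396E control libraries YTHDF3, at 11.5 and 10.3 CPM per kb, kept the fifth place but overlapped METTL3 at 10.1 and 9.19. In the arsenite libraries of both lines METTL3 stood above YTHDF3, at 15.0 against 10.7 CPM per kb in S181E and at 19.4 against 9.17 CPM per kb in Y396E.

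**Figure D1:**
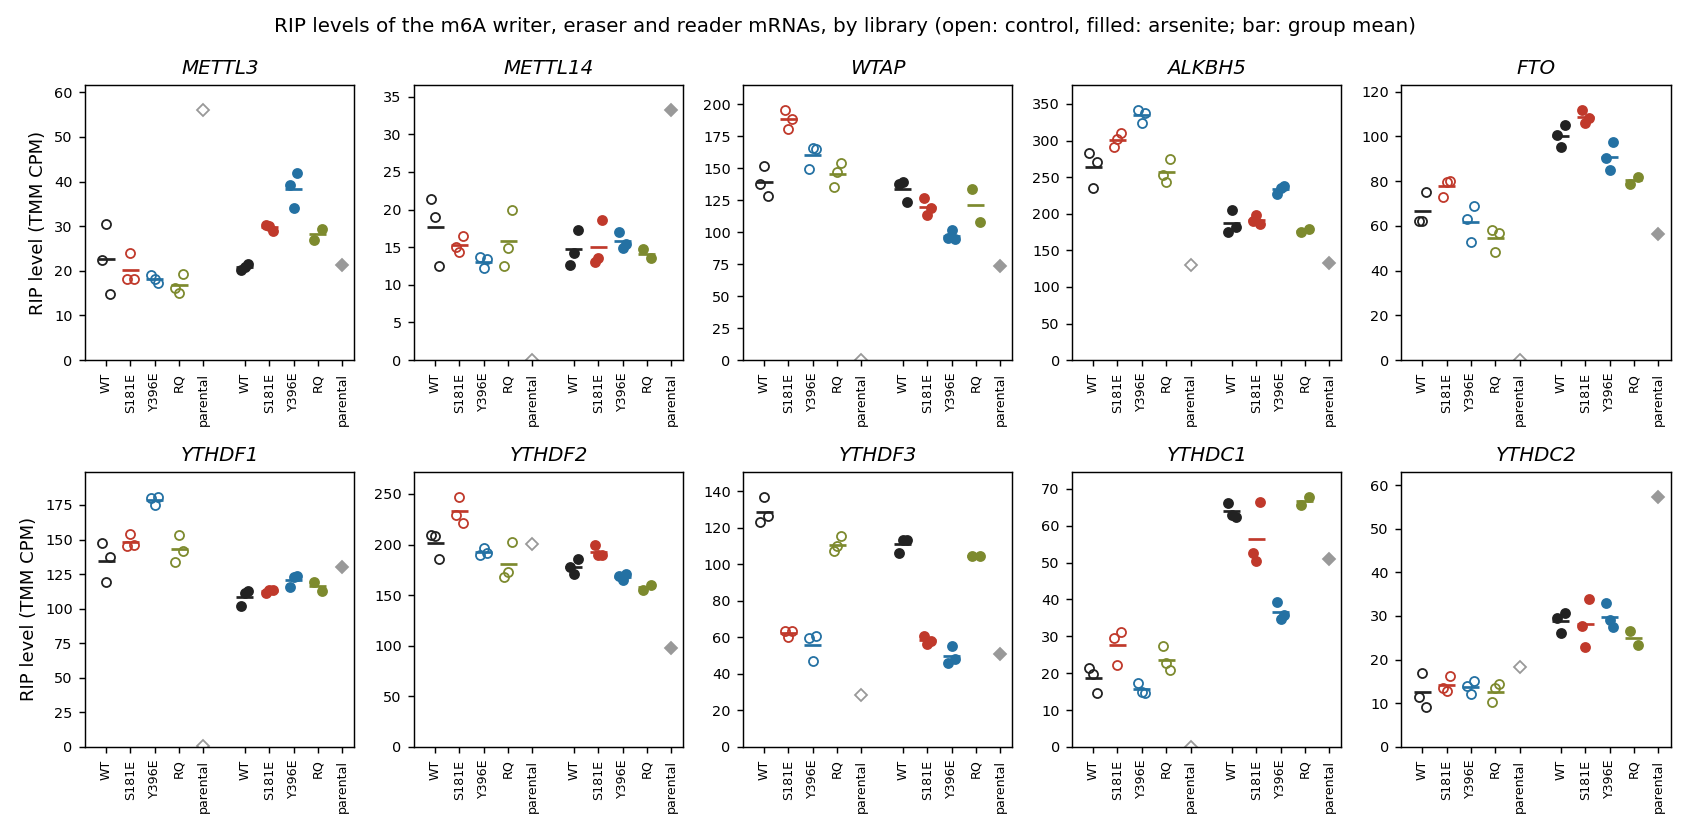
RIP level of each member in every library, in TMM-scaled CPM on a linear axis from 0, by line. Open points are control libraries, filled points are arsenite libraries, bars are group means and grey diamonds are the single parental libraries. YTHDF3 separates the S181E and Y396E libraries (up to 63.6 CPM) from the wild-type and RQ libraries (104 to 137 CPM) in both treatments.

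Over the bead background, none of the members stood out in arsenite. The methods of the study ask of a target that it be 4-fold over the parental RIP and also exceed its RNA-Seq level. Only the first condition was applied here, so passing it does not make a gene a target by that rule. At 4-fold, 0 of 10 members passed in any line, while of all tested genes 9.18% passed in wild-type, 8.24% in S181E, 6.14% in Y396E and 8.36% in RQ. The highest ratio was that of YTHDF3 in wild-type, at 2.18 (2.09 to 2.23 over its libraries), followed by YTHDF3 in RQ at 2.05. In S181E and Y396E the YTHDF3 ratio was 1.15 and 0.981, so its level there was about that of the parental library. YTHDF2, WTAP, FTO and ALKBH5 lay between 1.32 and 1.98 in all 4 lines. METTL14 (0.426 to 0.475), YTHDC2 (0.436 to 0.520) and YTHDF1 (0.836 to 0.931) were below the parental library in every line. YTHDC1 was at 1.26 in wild-type and 1.31 in RQ, at 1.11 in S181E and at 0.720 in Y396E, and METTL3 ran from 0.980 in wild-type to 1.80 in Y396E. These ratios rest on 1 parental library, so they have no replicate error on that side.

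Under control conditions the sparse parental library set the ratios. It had no count on METTL14, WTAP, FTO and YTHDC1, for which wild-type was at least 8.71-fold, at least 68.7-fold, at least 32.9-fold and at least 9.20-fold higher than a floor of 3 counts. YTHDF1 had a single parental count, and its wild-type ratio of 199 had a counting interval of 35.8 to 7877. Better measured were ALKBH5 with 193 parental counts and a ratio of 2.02, YTHDF2 with 297 and 1.00, YTHDF3 with 42 and 4.55, METTL3 with 83 and 0.403, and YTHDC2 with 27 and 0.686. For YTHDF3 the ratio was 3.91 in RQ, 2.2 in S181E and 1.97 in Y396E. At least 4-fold were 6 members in wild-type and 5 in each mutant line, while of all tested genes 47.7% passed in wild-type, 48.2% in S181E, 48% in Y396E and 47.6% in RQ. With the deeper parental arsenite library as background for the control libraries too, 0 members passed in any line. Intervals and floors cover counting error only, since PCR copies are not independent molecules.

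**Figure D2:**
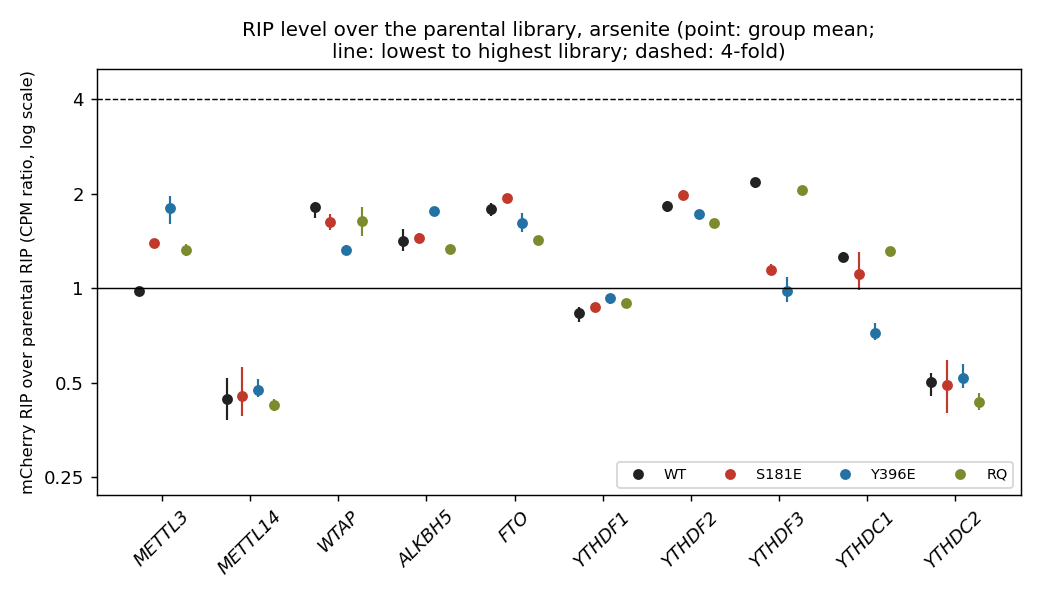
Ratio of the mean RIP level of each line to the parental RIP level in arsenite, for the 10 members, on a log axis. Points are group means over 3 libraries (2 for RQ), lines run from the lowest to the highest library, and the dashed line marks 4-fold. No point reaches the dashed line, YTHDF3 reaches 2.18 in wild-type and 0.981 in Y396E, and METTL14 and YTHDC2 stay at or under 0.520.

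YTHDF3 was the member that set both phosphomimetic lines apart from wild-type. YTHDF3 lies on chromosome 8 of hg38 (63168553 to 63212786, plus strand) and encodes a cytoplasmic reader that acts with YTHDF1 and YTHDF2. In control libraries its level was 123, 137 and 127 CPM in wild-type, 63.6, 60.3 and 63.4 CPM in S181E, 59.6, 47.2 and 60.8 CPM in Y396E, and 107, 110 and 115 CPM in RQ. Every S181E and Y396E library was thus far below every wild-type and RQ library. The RQ libraries also lay just below the wild-type ones. From the gene lists read below, VIRMA, POP1 and RIDA also lie on chromosome 8, and their control means were lower in both phosphomimetic lines too. In wild-type, S181E and Y396E control, VIRMA was at 57.5, 38.0 and 30.0 CPM and POP1 at 15.4, 7.06 and 9.11 CPM. RIDA, too low to be tested, was at 7.74, 3.90 and 4.78 CPM. In arsenite VIRMA was at 57.3, 45.7 and 40.1 CPM and RIDA at 7.28, 4.66 and 4.56 CPM. POP1 was nearer between the lines there, at 29.9, 26.4 and 28.2 CPM, and was not called. In control the wild-type means of VIRMA, POP1 and RIDA were 0.543, 0.423 and 0.337 of the parental level. Whether the shared chromosome has a part in these differences was not tested.

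In arsenite the wild-type libraries held 106, 113 and 114 CPM of YTHDF3, the S181E libraries 60.7, 56.2 and 58.2, the Y396E libraries 46, 55.4 and 48.3, and the RQ libraries 104 and 105 CPM. The phosphomimetic libraries were again all below the others, with no overlap. The log2 fold change of S181E to wild-type was −1.03 (SE 0.10, edgeR adjusted p = 1.8e-07) in control and −0.93 (SE 0.10, edgeR adjusted p = 7.6e-07) in arsenite. For Y396E it was −1.19 (SE 0.10, edgeR adjusted p = 1.8e-08) in control and −1.12 (SE 0.10, edgeR adjusted p = 2.2e-08) in arsenite. YTHDF3 in S181E was therefore at 0.488 of wild-type in control and at 0.524 in arsenite, and in Y396E at 0.439 and 0.459. Both lines were set against the same wild-type libraries. RQ was not called, at −0.22 (95% interval −0.42 to −0.01) in control and −0.08 (−0.30 to 0.15) in arsenite. None of the alternatives run ended any of the 4 calls.

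The arsenite effect on YTHDF3 was not shown to differ between the lines. The interaction was 0.10 (95% interval −0.18 to 0.39) for S181E, 0.06 (−0.22 to 0.35) for Y396E and 0.14 (−0.16 to 0.44) for RQ on the log2 scale. Between the phosphomimetic lines themselves the log2 difference, Y396E against S181E, was −0.15 (−0.36 to 0.05) in control and −0.19 (−0.39 to 0.01) in arsenite, neither of which was called.

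The calls of the mutant comparisons across all members are given beside the share of all tested genes that was called. In control, S181E had 3 members called against wild-type, with YTHDF3 lower and WTAP and YTHDC1 higher, where 20.8% of all tested genes were called (8% lower and 12.8% higher). Y396E also had 3, with YTHDF3 lower and ALKBH5 and YTHDF1 higher, where 28.9% of all genes were called (12.7% lower and 16.2% higher). RQ had 0 of 10, where 6.34% of all genes were called (2.83% lower and 3.51% higher), with METTL3, FTO, YTHDF3 and YTHDC1 at an unadjusted p of 0.027, 0.014, 0.036 and 0.041 in the same edgeR test. The median log2 fold change of the members was 0.20 for S181E, −0.07 for Y396E and −0.09 for RQ, beside 0.05, 0.05 and 0.03 over all genes. Without 1 wild-type control library further members passed: ALKBH5 in S181E without replicate 1 (0.27, edgeR adjusted p = 0.046), FTO in S181E without replicate 3 (0.33, edgeR adjusted p = 0.041) and WTAP in Y396E without replicate 2 (0.28, edgeR adjusted p = 0.047).

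In arsenite 1 member, YTHDF3, was called for S181E, where 7.53% of all genes were called (5.34% lower and 2.2% higher). For Y396E 5 were called, where 32.5% of all genes were (19.4% lower and 13.1% higher). For RQ 0 were called, where 0.504% of all genes were (0.218% lower and 0.286% higher). The Y396E calls were YTHDF3, WTAP and YTHDC1 on the lower side and METTL3 and ALKBH5 on the higher. In RQ, METTL3 and FTO were at an unadjusted edgeR p of 0.036 and 0.015, and both passed when the model held no libraries but those compared (METTL3 at 0.43, edgeR adjusted p = 0.026, and FTO at −0.32, edgeR adjusted p = 0.018), a setting that called 11.7% of all genes. The members' median log2 fold change was 0.03, 0.02 and −0.08, beside 0.01, 0.01 and −0.01 over all genes. With 10 members, these shares were not tested against the background.

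**Figure D3:**
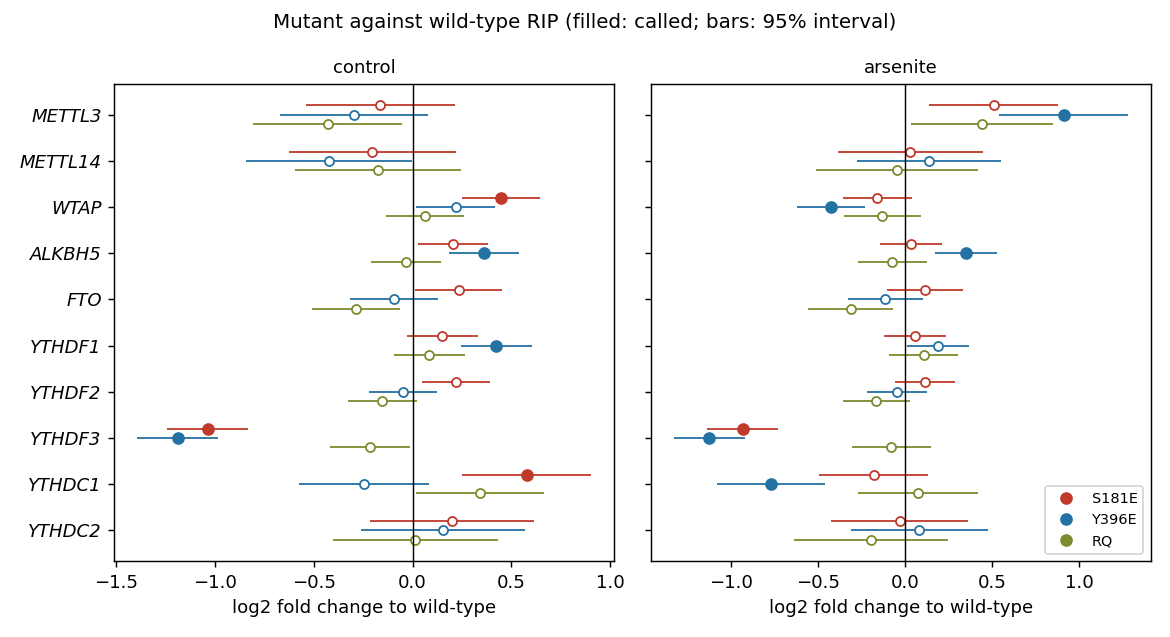
Log2 fold change of each mutant RIP to the wild-type RIP for the 10 members, in control (left) and arsenite (right). Points are edgeR estimates, filled where called, and bars are 95% intervals. YTHDF3 is near −1 for S181E and Y396E in both panels (−0.93 to −1.19), METTL3 and YTHDC1 part in opposite directions for Y396E in arsenite (0.91 and −0.77), and no RQ point is filled.

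Of the writers, WTAP was higher than wild-type in S181E under control conditions and lower in Y396E after arsenite. WTAP lies on chromosome 6 (159725585 to 159756319, plus strand). In control it was counted at 137, 151 and 128 CPM in wild-type and at 195, 180.8 and 188 CPM in S181E, with no overlap, and the log2 fold change was 0.45 (SE 0.10, edgeR adjusted p = 0.0020). In arsenite it was at 138, 139 and 123 CPM in wild-type and at 95.2, 101 and 94.9 CPM in Y396E. All Y396E libraries were below all wild-type libraries, with a log2 fold change of −0.43 (SE 0.10, edgeR adjusted p = 0.0017). The S181E call was lost with only the 2 groups in the model (0.42, adjusted p = 0.080), and the Y396E call was lost with library totals in place of TMM (−0.20, adjusted p = 0.094).

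METTL3, the catalytic subunit, was higher in Y396E than in wild-type after arsenite. METTL3 lies on chromosome 14 (21498138 to 21511340, minus strand). Its arsenite levels were 20.2, 20.9 and 21.5 CPM in wild-type, 30.2, 30.1 and 28.9 in S181E, 39.3, 34.0 and 41.8 in Y396E, and 27.0 and 29.4 CPM in RQ. The wild-type libraries were the lowest and the Y396E libraries the highest, with S181E and RQ between them. Relative to wild-type, the log2 fold change was 0.91 for Y396E (SE 0.18, edgeR adjusted p = 0.00048), which no alternative ended. S181E was at 0.51 (SE 0.18, edgeR adjusted p = 0.091) and not called. In arsenite S181E and wild-type libraries of the same replicate number deviated together (correlations 0.29 to 0.40), the only ground for pairing them. With that number as a block and only these 2 groups in the model, METTL3 was called at 0.51 (edgeR adjusted p = 0.00030), which brings the members called to 2. That model called 24.4% of all genes. RQ was at 0.44 (edgeR adjusted p = 0.48).

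In control METTL3 spread widely among the wild-type libraries, at 22.5, 30.4 and 14.8 CPM, and between 15.1 and 24.0 CPM in the mutant libraries, which overlapped them. No mutant was called, but without wild-type control replicate 3, the lowest of the 3, both Y396E (−0.52, edgeR adjusted p = 0.018) and RQ (−0.65, edgeR adjusted p = 0.017) were called lower. METTL14, on chromosome 4 (118685392 to 118715430, plus strand), ran from 12.2 to 21.4 CPM over all mCherry libraries and was called in none of the 15 comparisons. Its log2 fold change in Y396E control libraries was −0.42 (95% interval −0.84 to −0.0024), and without wild-type control replicate 3 it was called at −0.61 (edgeR adjusted p = 0.024). METTL3 and METTL14 encode partners of 1 complex. Over the 23 mCherry libraries, which share lines and treatments, Pearson's r of their log2 levels was 0.27.

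Among the erasers, ALKBH5 was higher in Y396E than in wild-type in both treatments. ALKBH5 lies on chromosome 17 (18183078 to 18209954, plus strand). In control it was counted at 283, 235 and 271 CPM in wild-type and at 342, 324 and 338 CPM in Y396E. In arsenite the values were 174, 204 and 182 CPM in wild-type and 227, 235 and 238 CPM in Y396E. The groups did not overlap in either treatment, as was so for 36.2% and 62.1% of all tested genes. Y396E exceeded wild-type by 0.36 (SE 0.09, edgeR adjusted p = 0.0029) in control and by 0.35 (SE 0.09, edgeR adjusted p = 0.0033) in arsenite on the log2 scale. These modest changes depended on the scaling. With TMM factors taken from the 1532 genes that showed no excess over the beads, they were 0.17 (adjusted p = 0.32) and 0.08 (adjusted p = 0.63), and the control call was also lost with only the 2 groups in the model (adjusted p = 0.065).

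FTO, on chromosome 16 (53701692 to 54153406, plus strand), was called in no mutant. It was lowest in RQ, at 58.2, 48.5 and 56.9 CPM in control against 62.3, 62.3 and 75.2 CPM in wild-type, and at 78.8 and 81.9 CPM in arsenite against 101, 95.3 and 105 CPM. The RQ libraries were below the wild-type libraries in both treatments, with log2 fold changes of −0.29 (95% interval −0.51 to −0.06, edgeR adjusted p = 0.11) and −0.31 (−0.56 to −0.07, edgeR adjusted p = 0.35). S181E was at 0.23 in control and 0.11 in arsenite, and Y396E at −0.10 and −0.11.

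The nuclear reader YTHDC1 moved differently in the 2 phosphomimetic lines. YTHDC1 lies on chromosome 4 (68310387 to 68350090, minus strand). In control it was at 21.5, 19.9 and 14.6 CPM in wild-type, at 29.6, 22.2 and 31.3 CPM in S181E and at 17.3, 15.0 and 14.5 CPM in Y396E. All S181E libraries were above the wild-type libraries, if narrowly, while the Y396E libraries overlapped them. S181E was called higher at 0.58 (SE 0.16, edgeR adjusted p = 0.012) and Y396E was not called, at −0.25. The S181E call was lost without wild-type control replicate 3 (0.43, adjusted p = 0.055), without S181E control replicate 3 (0.47, adjusted p = 0.063), and with only the 2 groups in the model (0.55, adjusted p = 0.22).

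After arsenite YTHDC1 was at 66.3, 62.9 and 62.4 CPM in wild-type, 52.6, 50.4 and 66.5 CPM in S181E, 39.4, 34.7 and 35.8 CPM in Y396E, and 65.7 and 67.9 CPM in RQ. The Y396E libraries were below all others. Y396E was called lower than wild-type at −0.77 (SE 0.15, edgeR adjusted p = 0.00046), a call that no alternative ended. S181E was at −0.18 (95% interval −0.49 to 0.13) and RQ at 0.07 (−0.27 to 0.42).

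The cytoplasmic readers YTHDF1 and YTHDF2 did not follow YTHDF3. YTHDF1, on chromosome 20 (63195429 to 63216139, minus strand), stood at 147, 119 and 137 CPM in the wild-type control libraries and at 180, 175 and 180.99 CPM in Y396E, with no overlap, and was called higher at 0.42 (SE 0.09, edgeR adjusted p = 0.00082). With TMM factors from the genes without excess over the beads the value was 0.23 (adjusted p = 0.13). In S181E control libraries YTHDF1 was at 145 to 154 CPM, a log2 difference of 0.15 that was not called. YTHDF2, on chromosome 1 (28736621 to 28769775, plus strand), ran from 186 to 209 CPM in wild-type control libraries and was called in no mutant against wild-type. Its log2 fold changes lay between −0.17 for RQ in arsenite and 0.22 for S181E in control. YTHDC2, on chromosome 5 (113513694 to 113595284, plus strand), was not called either, and its mutant values lay between −0.20 and 0.20.

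Arsenite changed between 5 and 8 of the members within each line. In wild-type 5 of 10 members were called, where 67.3% of all genes were (31.8% lower and 35.4% higher). In S181E 8 were called, where 67.8% of all genes were (34.6% lower and 33.3% higher). In Y396E 7 were called, where 65.1% of all genes were (33.8% lower and 31.3% higher), and in RQ 7, where 64.7% of all genes were (32.3% lower and 32.4% higher). ALKBH5 and YTHDF1 were lower and FTO, YTHDC1 and YTHDC2 were higher in all 4 lines. WTAP was called lower and METTL3 higher in the 3 mutant lines and neither was called in wild-type. YTHDF2 was called lower in S181E (−0.29, edgeR adjusted p = 0.0034), a call lost without S181E control replicate 2 (−0.25), with library totals (−0.26) and with all biotypes (−0.16). METTL14 and YTHDF3 were called in no line, and METTL14 was called lower in wild-type without control replicate 3 (−0.47, edgeR adjusted p = 0.036). The members' median log2 change was −0.16 in wild-type, −0.09 in S181E, 0.06 in Y396E and −0.12 in RQ, beside medians between −0.02 and 0.03 over all genes.

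YTHDC1 rose most. Its wild-type level went from a mean of 18.6 ± 3.63 CPM (SD, n = 3) in control to 63.9 ± 2.10 CPM (SD, n = 3) in arsenite, a log2 change of 1.76 (SE 0.16, edgeR adjusted p = 1.5e-09). In RQ it went from 23.6 to 66.8 CPM (1.49), in Y396E from 15.6 to 36.6 CPM (1.23) and in S181E from 27.7 to 56.5 CPM (1.00). No arsenite library overlapped a control library of its line, as was so for 68.1 to 75.7% of all tested genes. The change was smaller in S181E than in wild-type by 0.76 (95% interval of the interaction −1.21 to −0.31, edgeR adjusted p = 0.13), which was not called. The parental arsenite library, which holds no mCherry fusion, had 50.9 CPM of YTHDC1, so a level of this height was also present on the beads alone.

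YTHDC2 rose with it. Its wild-type libraries went from 11.4, 17.0 and 9.12 CPM to 29.5, 26.1 and 30.8 CPM, a log2 change of 1.19 (SE 0.20, edgeR adjusted p = 1.4e-05), and the other lines changed by 0.96 in S181E, 1.12 in Y396E and 0.98 in RQ. The groups did not overlap in any line. The parental arsenite library was higher than all of them, at 57.3 CPM. FTO rose by less and evenly, from 66.6 ± 7.47 to 100 ± 4.81 CPM (SD, n = 3) in wild-type. Its log2 changes were 0.58 in wild-type, 0.46 in S181E, 0.56 in Y396E and 0.55 in RQ, with edgeR adjusted p from 4.7e-05 to 0.00052. With TMM factors from the genes without excess over the beads FTO was no longer called in any line, at 0.26, 0.08, 0.16 and 0.25.

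ALKBH5 fell in all lines. The wild-type mean went from 263 ± 24.9 to 187 ± 15.6 CPM (SD, n = 3), and the log2 changes were −0.51 in wild-type, −0.68 in S181E, −0.52 in Y396E and −0.54 in RQ (edgeR adjusted p from 3.0e-07 to 3.6e-05), without overlap between treatments and kept under every alternative. YTHDF1 fell as well, by 0.32, 0.42, 0.56 and 0.30 on the log2 scale in wild-type, S181E, Y396E and RQ. The wild-type call on YTHDF1 was lost without wild-type control replicate 1 (−0.25) and with all biotypes (−0.17), and the RQ call was lost without RQ control replicate 2 (−0.25), without RQ arsenite replicate 2 (−0.27), with all biotypes (−0.19) and in 2 further settings. In the main fit the 2 erasers therefore went opposite ways in the RIP under stress, and so did the cytoplasmic reader YTHDF1 and the YTHDC readers. For the erasers this depended on the scaling, since the FTO rise was not called with TMM factors from the genes without excess over the beads.

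WTAP and METTL3 were the members whose response to arsenite depended on the line. WTAP did not change in a called way in wild-type (−0.07, 95% interval −0.27 to 0.13), while it fell from 188 ± 7.28 to 120 ± 6.76 CPM (SD, n = 3) in S181E and from 160 ± 9.23 to 97.2 ± 3.69 CPM (SD, n = 3) in Y396E. On the log2 scale S181E changed by −0.68 (edgeR adjusted p = 1.4e-06) and Y396E by −0.72 (edgeR adjusted p = 7.8e-07). In RQ it was −0.27 (edgeR adjusted p = 0.033), a call lost without RQ control replicate 2 (−0.26), without RQ control replicate 3 (−0.23), without RQ arsenite replicate 2 (−0.12) and in 6 other settings. METTL3 did not change in a called way in wild-type either (−0.13, 95% interval −0.50 to 0.25). It went from 18.2 ± 0.941 to 38.4 ± 3.96 CPM (SD, n = 3) in Y396E, a log2 change of 1.08 (edgeR adjusted p = 1.5e-05), and changed by 0.54 in S181E (edgeR adjusted p = 0.010) and 0.74 in RQ (edgeR adjusted p = 0.0022).

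These values lean on the scaling. With TMM factors from only the 1532 genes that showed no excess over the beads, the median of all genes itself moved by −0.28 in wild-type, −0.38 in S181E, −0.42 in Y396E and −0.30 in RQ. METTL3 was then at 0.17 in S181E and 0.43 in RQ and no longer called, and in wild-type both METTL3 (−0.42, edgeR adjusted p = 0.043) and WTAP (−0.38, edgeR adjusted p = 0.0087) were called lower. YTHDF3 was called lower in all 4 lines under this scaling (−0.39 to −0.56). The Y396E change of METTL3 and the S181E and Y396E changes of WTAP were called there too.

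The difference of these responses from wild-type was tested as an interaction. For Y396E, 2 members were called, where 2.85% of all genes were (2.4% lower and 0.447% higher), namely METTL3 at 1.21 (SE 0.25, edgeR adjusted p = 0.0094) and WTAP at −0.64 (SE 0.14, edgeR adjusted p = 0.0094). For S181E only WTAP was called, at −0.61 (SE 0.14, edgeR adjusted p = 0.044), where 0.389% of all genes were called (0.275% lower and 0.114% higher). For RQ 0 members were called, where 0.0687% of all genes were (0.0114% lower and 0.0572% higher), and METTL3 was at 0.87 (unadjusted p = 0.0036, edgeR adjusted p = 0.25). Both Y396E interactions were kept under all alternatives run. The S181E one was lost in 17 of 23, with adjusted p up to 0.18, among them 9 of the 12 that leave out 1 library (−0.66 to −0.55). Without wild-type control replicate 3 the METTL3 interaction was called for S181E (0.89, edgeR adjusted p = 0.047) and for RQ (1.09, edgeR adjusted p = 0.038).

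**Figure D4:**
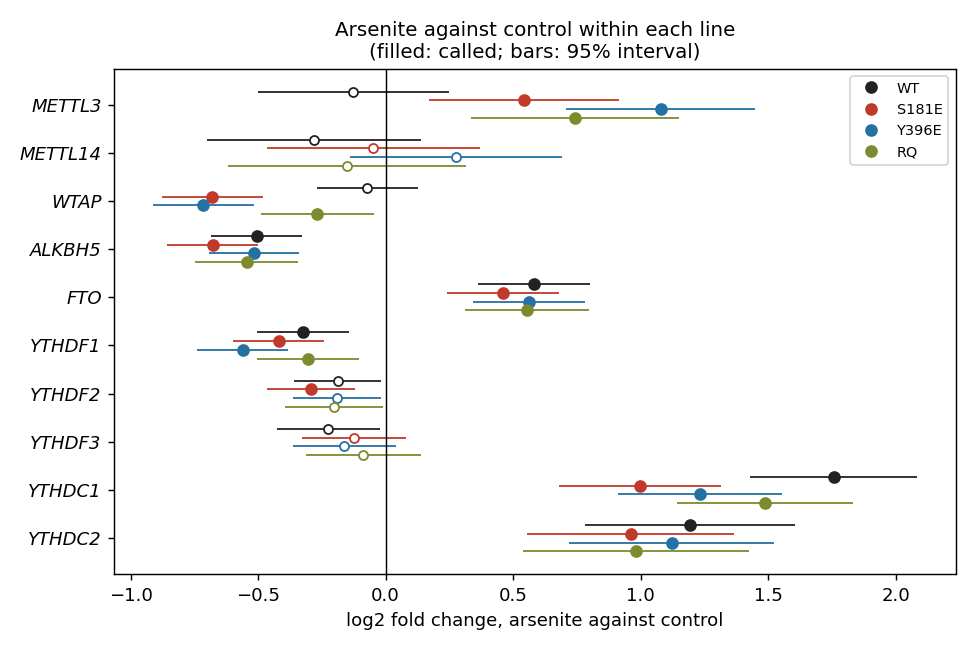
Log2 fold change from control to arsenite within each line for the 10 members. Points are edgeR estimates, filled where called, and bars are 95% intervals. FTO, YTHDC1 and YTHDC2 are to the right of 0 and ALKBH5 and YTHDF1 to the left in all 4 lines, while METTL3 and WTAP in wild-type (−0.13 and −0.07) lie near 0 and apart from Y396E (1.08 and −0.72).

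Epithelial markers, summed over the 6 of the list, moved with the treatment as well. Their sum was 672 to 1195 CPM in the control libraries and 1548 to 2451 CPM in the arsenite libraries, with the highest values in Y396E arsenite (2317 to 2451 CPM). The 5 markers of other cell types summed to 1.58 to 12.8 CPM in control and 8.20 to 13.5 CPM in arsenite libraries, with PTPRC at 0 throughout. Protein-coding and mitochondrial rRNA shares also parted by treatment without overlap, as given above. The part of these shifts in the arsenite results was not tested.

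Set directly against each other, the 2 phosphomimetic lines differed most in YTHDC1. Y396E was lower than S181E at −0.82 (SE 0.16, edgeR adjusted p = 0.0034) in control and at −0.59 (SE 0.15, edgeR adjusted p = 0.013) in arsenite. In control 3 members were called, where 10.1% of all genes were (6.51% lower and 3.6% higher), namely YTHDC1, YTHDF2 (−0.27, edgeR adjusted p = 0.044) and YTHDF1 (0.27, edgeR adjusted p = 0.045). In arsenite 2 were called, where 11.8% of all genes were (9.22% lower and 2.59% higher), namely YTHDC1 and ALKBH5 (0.32, edgeR adjusted p = 0.017). Control libraries of these lines with the same replicate number deviated together (correlations 0.12 to 0.57), the only ground for pairing them. With the replicate number as a block, which called 20.3% of all genes, FTO was called too, at −0.33 (edgeR adjusted p = 0.011), as it was without Y396E control replicate 3 (−0.42, edgeR adjusted p = 0.026). With the block and only these 2 groups in the model, YTHDF2 was no longer called (−0.26, edgeR adjusted p = 0.0057), since its change fell short of 20%.

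Of these calls the YTHDC1 difference in control held under every alternative. In arsenite it was lost without Y396E replicate 2 (−0.56, adjusted p = 0.070) and without S181E replicate 3 (−0.46, adjusted p = 0.098). The call on YTHDF2 was lost without any 1 of the 6 libraries and that on YTHDF1 without any 1 of 5 of them, at adjusted p from 0.071 to 0.13. YTHDF1 was also lost with DESeq2 size factors (0.26, adjusted p = 0.051) and with TMM factors from the genes without excess over the beads (0.12, adjusted p = 0.50), and YTHDF2 with library totals (−0.16, adjusted p = 0.22). Different filters and only the groups compared ended both calls too. The call on ALKBH5 was lost without S181E arsenite replicate 1, S181E arsenite replicate 3, Y396E arsenite replicate 2 or Y396E arsenite replicate 3 (0.29 to 0.32, adjusted p from 0.066 to 0.078), with no filter (adjusted p = 0.087) and with TMM factors from the genes without excess over the beads (0.15, adjusted p = 0.45).

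Other genes of the pathway were read from lists fixed by name. Of 10 further writers and writer partners, 3 were called in S181E control, with VIRMA and PCIF1 lower and METTL5 higher, 3 in Y396E control (VIRMA and CBLL1 lower, METTL5 higher) and 2 in RQ control (PCIF1 lower, METTL5 higher), where 20.8%, 28.9% and 6.34% of all genes were called. In arsenite 0 were called in S181E and in RQ, and 4 in Y396E (VIRMA, ZC3H13 and CBLL1 lower, TRMT112 higher), where 7.53%, 0.504% and 32.5% of all genes were called. VIRMA, the scaffold of the writer complex, was lower than wild-type by 0.58 in S181E control, by 0.92 in Y396E control and by 0.48 in Y396E arsenite on the log2 scale (edgeR adjusted p = 0.0026, 1.4e-05 and 0.0057). CBLL1, a writer partner also known as Hakai, was lower in Y396E in both treatments (−0.53 and −0.62). In Y396E arsenite WTAP was thus called lower, as were VIRMA, CBLL1 and ZC3H13 (−0.42). METTL3 was called higher there (0.91), and METTL14, RBM15 and RBM15B were not called. In Y396E control WTAP was at 0.22 and not called.

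With arsenite 7 of these 10 were called in wild-type, 7 in S181E, 8 in Y396E and 7 in RQ, where 67.3%, 67.8%, 65.1% and 64.7% of all genes were, so these shares are near the background. RBM15 and RBM15B, which guide the writer complex to RNA, fell in all lines (−0.50 to −0.86 and −0.76 to −1.06), as did METTL16, a separate m6A methyltransferase (−0.99 to −1.22). ZCCHC4 and PCIF1, which methylate rRNA and the cap-adjacent adenosine, rose in all lines (0.69 to 0.87 and 0.32 to 0.84).

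Of 7 other reader proteins 3 were called in S181E control (20.8% of all genes), 4 in Y396E control (28.9%), 1 in RQ control (6.34%) and 1 in Y396E arsenite (32.5%), where IGF2BP2 was lower (−0.38). IGF2BP2 and IGF2BP3 are the genes labelled as knocked out in the mCherry lines, yet group means of their mRNAs were 138 to 242 CPM and 150 to 418 CPM there, so mRNA of both was still counted. HNRNPC, RBMX and IGF2BP3 were called higher in both phosphomimetic lines in control, IGF2BP3 by 0.78 and 0.64, and HNRNPC was called higher in RQ control as well (0.34). In arsenite HNRNPA2B1, RBMX and PRRC2A rose in all lines, HNRNPA2B1 by 1.63 to 1.96, and IGF2BP3 fell in all lines, by 0.68 in wild-type and 1.25 in S181E. On the beads alone, HNRNPA2B1 went from 259 CPM in the parental control to 665 CPM in the parental arsenite library. RBMX went from 25.6 to 158 CPM there, PRRC2A from 261 to 532 CPM and IGF2BP3 from 16.2 to 135 CPM. Wild-type HNRNPA2B1 was at 0.304 of the parental level in control and at 0.417 in arsenite. Of 7 effectors and methyl donor genes 6 were tested, since RIDA was too low. With arsenite 5 were called in wild-type and in S181E, and 6 in Y396E and in RQ, all higher. Of all genes 64.7 to 67.8% were called there. CNOT1, XRN1, UPF1, POP1 and AHCY rose in all 4 lines, UPF1 by 1.39 to 1.91. Each of them was also higher in the parental arsenite than in the parental control library, UPF1 at 145 against 56.7 CPM. AHCY stood there at 272 against 41.8 CPM. Wild-type UPF1 was at 0.424 of the parental level in control and at 0.443 in arsenite. Against wild-type, POP1 was called lower in S181E control (20.8% of all genes) and in Y396E control (28.9%), the only call in each. In RQ 0 were called in control (6.34%) and arsenite (0.504%), and 0 in S181E arsenite (7.53%). In Y396E arsenite 4 were called (32.5%). There UPF1, MAT2A and AHCY were higher than wild-type and XRN1, the cytoplasmic exonuclease, was lower (−0.50).

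For each member the gene with the most similar profile was taken by Pearson's r of log2 CPM over the 23 mCherry libraries, which share lines and treatments, so that r describes these libraries and carries no test. YTHDF3 was most like KLK7 (r = 0.98), YTHDC1 like ZCCHC8 and ALKBH5 like NF2 (0.96 each), YTHDC2 like HNRNPU (0.96), FTO like ZMIZ1 (0.95), YTHDF1 like ETNK2 (0.93) and WTAP like NUDT4 (0.92). METTL3 was most like STX1A (0.86) and YTHDF2 like SIMC1 (0.86). METTL14, whose level changed little, had no close profile, and its best match was DDN at 0.65. Among the members themselves ALKBH5 and YTHDF1 were the most alike (r = 0.92) and ALKBH5 and YTHDC1 the most opposed (−0.90), while the highest r of YTHDF3 with another member was 0.21, with METTL14.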

How the data were processed

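RIP-seq was analysed in 25 libraries. The authors aligned reads to hg38 with STAR 2.7.11b, using GENCODE release 46 and allowing 2 mismatches, and counted exon reads per gene by strand with featureCounts 2.0.6. The deposited values are raw counts per gene, not normalized, and reads from several places are left out by default, so near-identical genes are counted too low. Symbols came from GENCODE release 44 by identifier (545 of 63086 not found). The members and gene lists were chosen with earlier results of these data known.

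TMM factors over all protein-coding genes were computed first and genes were kept above 10 CPM in 11.5 or more of the 23 mCherry libraries, as in the study's methods. The settings named TMM over the genes tested as the scaling, and that is given as an alternative. An edgeR 4.0.16 quasi-likelihood model (R 4.3.3, limma 3.58.1) of 8 groups without covariates gave 15 comparisons. Parental libraries entered no test, and printed CPM use factors over all 25 libraries. A parental count of 0 was set to 3 for a lower bound. The fit was tested on simulated data. DESeq2 1.42.0 served as an alternative, beside other scalings, filters, models and left-out libraries. Named genes are the members, 3 fixed lists, the bait and each member's most similar gene.

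Same-numbered libraries deviated together in every pair for S181E and wild-type in arsenite (correlations 0.29 to 0.40) and for Y396E and S181E in control (0.12 to 0.57). This correlation is the only source of the pairing, for which more than 0.1 was asked in all 3 pairs. In arsenite Y396E did not reach this with wild-type (lowest 0.087) or with S181E (lowest 0.049).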

Additional observations from a re-analysis of the deposited data

Results flagged for a closer look

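The response of 2 members to arsenite differed between a mutant line and wild-type by the interaction term of the edgeR model. METTL3 changed by 1.21 more in Y396E than in wild-type on the log2 scale (edgeR adjusted p = 0.0094), with 3 of 3 Y396E arsenite libraries above and the wild-type arsenite libraries within the range of their controls. WTAP changed by −0.64 relative to wild-type in Y396E (edgeR adjusted p = 0.0094) and by −0.61 in S181E (edgeR adjusted p = 0.044), with all arsenite libraries of both mutants below all their controls. Of all tested genes, 35.4% in S181E and 38.8% in Y396E had all arsenite libraries below all controls. Groups of 3 were too small to test for single outlying libraries.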

How the results depend on the processing

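Of the members' calls, no value changed direction under any alternative. Counts of members called moved as follows. For S181E against wild-type in control 7 were called with library totals (32.2% of all genes) and 1 with only the groups compared (4.59%), and in arsenite 4 with library totals (13.2%), 2 with only the groups compared (21.5%) and 2 with those groups and the replicate block (24.4%). For RQ against wild-type the replicate block gave 1 in control (FTO, 12.4% of all genes), and in arsenite only the groups compared gave 2, with or without the block (13% and 11.7%). Arsenite in wild-type gave 9 with TMM over genes not above the parental RIP (67.4%). The S181E interaction gave 0 with DESeq2 size factors, library totals, TMM over genes not above the parental RIP, edgeR's filterByExpr (13515 genes), no filter (16940 genes), TMM over the tested genes, and only the groups compared with or without the block, where at most 0.447% of all genes were called, and 2 with the replicate block over all groups (3.09%). Y396E against S181E gave 1 in control with filterByExpr (4.91%), no filter (4.23%) or only the groups compared (4.27%), and in arsenite 1 with no filter (4.51%) and 4 with only the groups compared, with or without the block (39.1% and 37.1%). Members at least 4-fold over the parental RIP became 1 in wild-type and 1 in RQ arsenite at 2-fold, 3 in Y396E control at 8-fold, 3 in wild-type control with library totals, and 0 in control in every line with the parental arsenite library. Without length correction 6 of 10 members kept their rank.

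Leaving out each library in turn gave 2 to 4 members for S181E and 3 to 5 for Y396E in control, 0 to 1 for RQ in control, 1 for S181E, 5 for Y396E and 0 for RQ in arsenite, 4 to 6, 7 to 8, 7 and 5 to 7 for arsenite in wild-type, S181E, Y396E and RQ, 0 to 1, 2 and 0 to 1 for the S181E, Y396E and RQ interactions, and 1 to 2 in control and 0 to 2 in arsenite for Y396E against S181E. TMM over the tested genes and the replicate block with only the groups compared were chosen after seeing the data. Where replicate numbers did not pair the libraries, the block is a setting and no pairing. The parental control library, with 742207 protein-coding counts, limits every control ratio.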
